A study of Mus musculus with 18 samples.

Results

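The 5 tumour pools described here, AKXD strains 14, 22, 23, 24 and 27, are the 5 of 18 with the highest levels of the miR-199a, miR-199b and miR-214 rows, and they are set against the other 13. They were chosen by those measured values: each row's log2 level was centred on its mean over the 18 pools, and the centred values of miR-199a-3p, miR-199b*, miR-214 and miR-214* were averaged to a score. The split is therefore not a treatment or a genotype group, and every difference across it is given as a description, with no test. The working name for these pools is mesenchymal-high. With all 18 pools kept, no other stromal miRNA separated these 2 sets of pools without overlap. The pools are therefore called by their miR-199 and miR-214 rows below, and for short the high pools.

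A miRNA is a short RNA that guides repression of messenger RNAs, mainly through its seed, bases 2 to 8 from the 5′ end. The genes Mir199a-2 and Mir214 are transcribed together from a long non-coding RNA, Dnm3os, in mesenchymal cells such as fibroblasts and pericytes, while the miR-200 family is made in epithelial cells and represses the transcription factors Zeb1 and Zeb2. In a mammary carcinoma the carcinoma cells are the usual source of the miR-200 family, and the fibroblasts, vessels, fat and immune cells around them are usual sources of the other miRNAs listed below.

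The mature sequences of the rows that chose the pools, and of the miR-200 family and the miR-193b and miR-365 pair set against them, are shown because the seed decides which members can share targets. They are from RefSeq, assembly GRCm38.p6, written 5′ to 3′ with the seed in capitals.
miR-199a-3p: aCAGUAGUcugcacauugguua
miR-199b: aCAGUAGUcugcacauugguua
miR-199a-5p: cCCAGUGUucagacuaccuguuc
miR-214: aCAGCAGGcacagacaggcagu
miR-214*: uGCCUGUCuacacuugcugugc
miR-200a: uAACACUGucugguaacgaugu
miR-141: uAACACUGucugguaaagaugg
miR-200b: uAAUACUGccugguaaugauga
miR-200c: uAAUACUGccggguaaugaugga
miR-429: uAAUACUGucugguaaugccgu
miR-193b: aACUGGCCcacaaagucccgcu
miR-365: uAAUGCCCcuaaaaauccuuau
miR-199a-3p and miR-199b have 1 mature sequence, and their rows in the table are identical in every pool, so they are counted once and cannot be told apart. miR-200a and miR-141 share the seed AACACUG, and miR-200b, miR-200c and miR-429 share the seed AAUACUG. The arm miR-199b* is given by name.

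In GRCm38, Mir199a-2 (chr1:162217814-162217923) and Mir214 (chr1:162223368-162223477) lie on the plus strand with 5444 bases between them. Both overlap an exon of the non-coding RNA Dnm3os and lie antisense within an intron of Dnm3. Mir199a-1 (chr9:21496495-21496564) lies antisense in an intron of Dnm2, and Mir199b (chr2:32318460-32318569) antisense in an intron of Dnm1. Mir200a and Mir200b lie 695 bases apart on chromosome 4 in an intron of Ttll10, and Mir200c and Mir141 lie 336 bases apart on chromosome 6. The build named for the deposited table is mm9, and the table itself holds no positions.

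Every pool is small RNA of snap-frozen mammary tumours from F1 mice of 1 AKXD recombinant inbred strain crossed to FVB/N-TgN(MMTV-PyVT)634Mul, sequenced on an Illumina Genome Analyzer IIx. AKXD strains descend from AKR/J and DBA/2J, and all 18 pools share the FVB/N parent of the cross and the transgene, in which the mouse mammary tumour virus promoter drives the polyoma virus middle T oncogene mainly in mammary epithelium. The labels give 1 pooled library per strain and no replicate, and neither the number of tumours in a pool nor the ages of the mice are given in the sources used here, so the spread between pools mixes strain, tumour and library differences. In bulk tissue of this kind, fewer cells of a type and less of an RNA per cell cannot be told apart. Libraries held 4358417 to 14949962 reads, and the 5 pools 6626690 to 14949962. Levels are in CPM, read counts scaled to a common total, after scaling by a trimmed mean of M values. The factors ran from 0.671 (strain 14) to 1.67 (strain 28). Unless another scaling is named, levels and places of single pools are with these factors, and some places change with total counts. Strain 28, next in line for the high set, also stood apart by its miR-21 of 274 CPM, against 69686 CPM at the median of the 5 and 70126 CPM at the median of the 13.

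Of the rows that chose the pools, miR-214, the 3′ arm of Mir214, separated the sets and the other 3 overlapped. Lists of 5 values here and below run in the order of strains 14, 22, 23, 24 and 27. miR-214 stood at 59.7, 63.0, 58.7, 62.6 and 59.4 CPM in the 5 pools, against 24.0 (strain 21) to 54.0 CPM (strain 13) in the 13, with a median of 34.0 CPM. The 5 values were nearly equal, and each lay above all 13 others, so the higher pool of all 65 pairs of 1 high and 1 other pool was the high one. With total counts alone the separation ended: miR-214 then ran from 40.1 to 79.6 CPM in the 5 and from 27.0 to 75.6 CPM in the 13, higher in 60 of 65 pairs. These values rest on 528 to 924 reads in the 5 pools and on 121 to 544 reads in the others. Exact 95% Poisson intervals, which cover counting error only, lay apart in 57 of the 65 pairs, and the intervals of 2 other pools reached the lowest bound among the 5, 54.3 CPM. miR-199a-3p, the most abundant of these rows, stood at 855, 847, 742, 1159 and 924 CPM against 571 to 967 CPM, with a median of 683 CPM. Strain 24 was the highest of all 18 pools for miR-199a-3p, and strain 2 of the other pools was above 4 of the 5. miR-199b*, the arm of Mir199b that is not shared with Mir199a, stood at 20.0, 25.9, 20.2, 16.7 and 16.7 CPM against 8.27 to 19.1 CPM. It was higher in the high pool in 59 of 65 pairs. miR-214*, the other arm of the Mir214 hairpin, stood at 16.8, 15.4, 16.7, 17.3 and 25.7 CPM against 12.1 to 22.1 CPM. Its medians, 16.8 and 15.5 CPM, were close together, and strain 27 alone stood above every other pool. miR-199a-5p was at 0.597 to 4.17 CPM in the 5 pools and was too low to use.

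**Figure D1:**
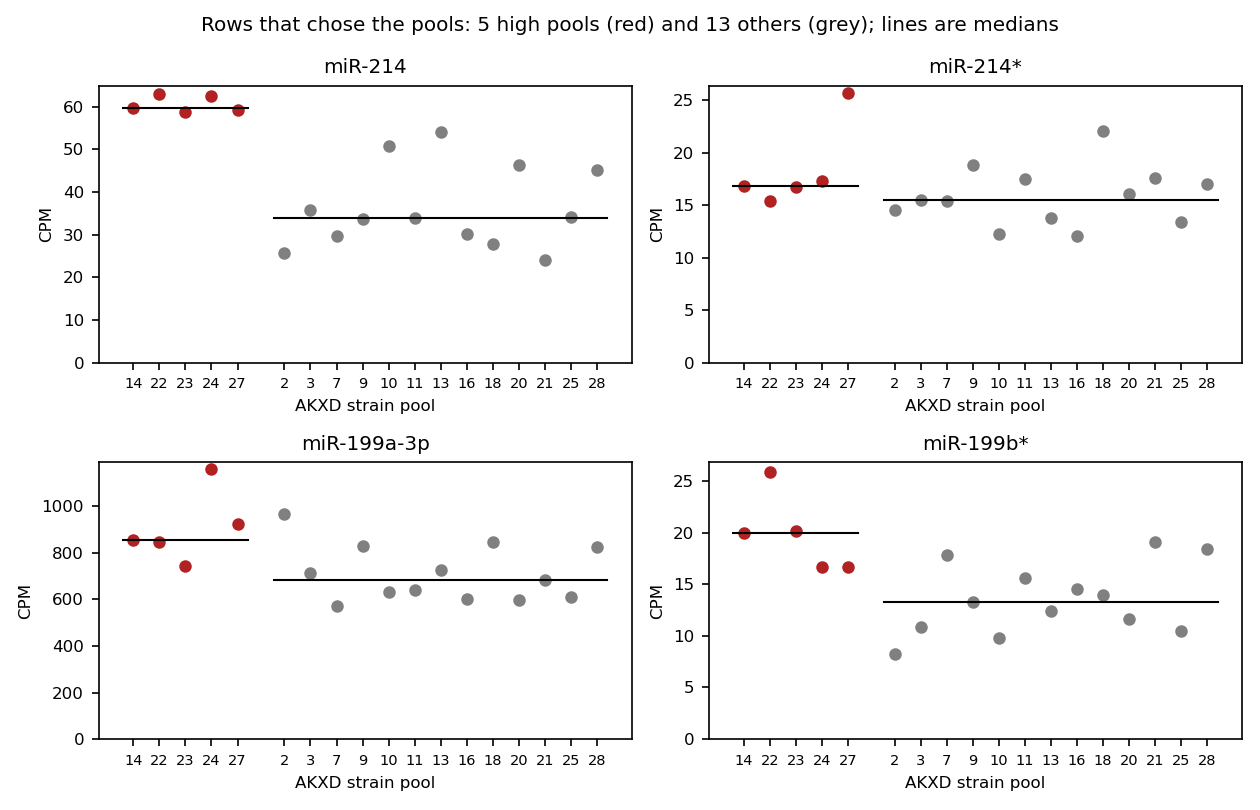
Level in CPM (linear axis) of the 4 rows that chose the pools, 1 point per strain pool, with red points for the 5 high pools, grey points for the 13 others and a line at each median. For miR-214 with this trimmed-mean scaling (not with total counts) all 5 red points lie above 58 CPM and all grey points at or below 54.0 CPM, while for the other 3 rows the colours overlap.

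The 2 arms of the Mir214 hairpin did not keep 1 ratio across pools. miR-214 was 3.56, 4.08, 3.51, 3.63 and 2.31 times miR-214* in the 5 pools, and 1.27 (strain 18) to 4.14 times (strain 10) in the 13, with a median of 2.31. The ratio was higher in the high pool in 52 of 65 pairs, and strain 27, with the most miR-214*, sat at the median of the 13. miR-199a-3p was 42.8, 32.7, 36.8, 69.6 and 55.3 times miR-199b* in the 5, and 32 to 117 times in the 13. The medians were 42.8 and 58.5, and the ratio was lower in the high pool in 40 of 65 pairs.

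The score declined gradually from pool to pool, and the line between the sets was a narrow one. It was 0.40 in strain 27, 0.37 in strains 22 and 24, 0.29 in strain 14 and 0.24 in strain 23 on the log2 scale, and 0.16 in strain 28, the sixth pool. The gap between strains 23 and 28 was 0.0806, and the lowest pool, strain 25, stood at −0.32. Which pools are highest depended on the scaling. With factors from the upper quartile the same 5 pools were chosen, and with the median of ratios 4 of the 5, with strain 28 in place of strain 23. With total counts alone only strains 22, 24 and 27 of the 5 were among the highest, beside strains 28 and 9. Strain 14 then ranked 14th and strain 23 ranked 7th. With totals that left out the skeletal muscle rows strain 14 ranked 10th and strain 23 ranked 8th. Strain 14 had 290785 CPM of the skeletal muscle miRNA miR-1, the highest of the 18 pools. The part of muscle RNA in its rank was not tested. When the summed CPM of the rows was used in place of the mean log2 level, strain 2 replaced strain 23. Strains 22, 24 and 27 were among the highest 5 in all 5 scalings of the mean log2 score.

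A ratio of miRNAs within a library needs no scaling. miR-214 per 1000 reads of the miR-200 family (miR-200a, miR-200b, miR-200c, miR-141 and miR-429 summed) was 1.51, 2.05, 1.59, 1.57 and 1.64 in the 5 pools and 0.625 (strain 25) to 1.46 (strain 28) in the 13, with a median of 0.862. By this ratio the 5 pools were the 5 highest, with strain 28 next and close to strain 14, but miR-214 is itself one of the rows that chose them, so their place is no independent support for the split. miR-199a-3p per 100 reads of the same family was 2.17, 2.76, 2.01, 2.90 and 2.55 against 1.12 to 3.22 (strain 2), so that strain 2 was above all 5. Strain 23 ranked 11th and strain 14 ranked 8th by the miR-199a-3p ratio. By these ratios miR-214 and miR-199a-3p, whose host RNA is partly shared, did not choose the same pools.

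**Figure D2:**
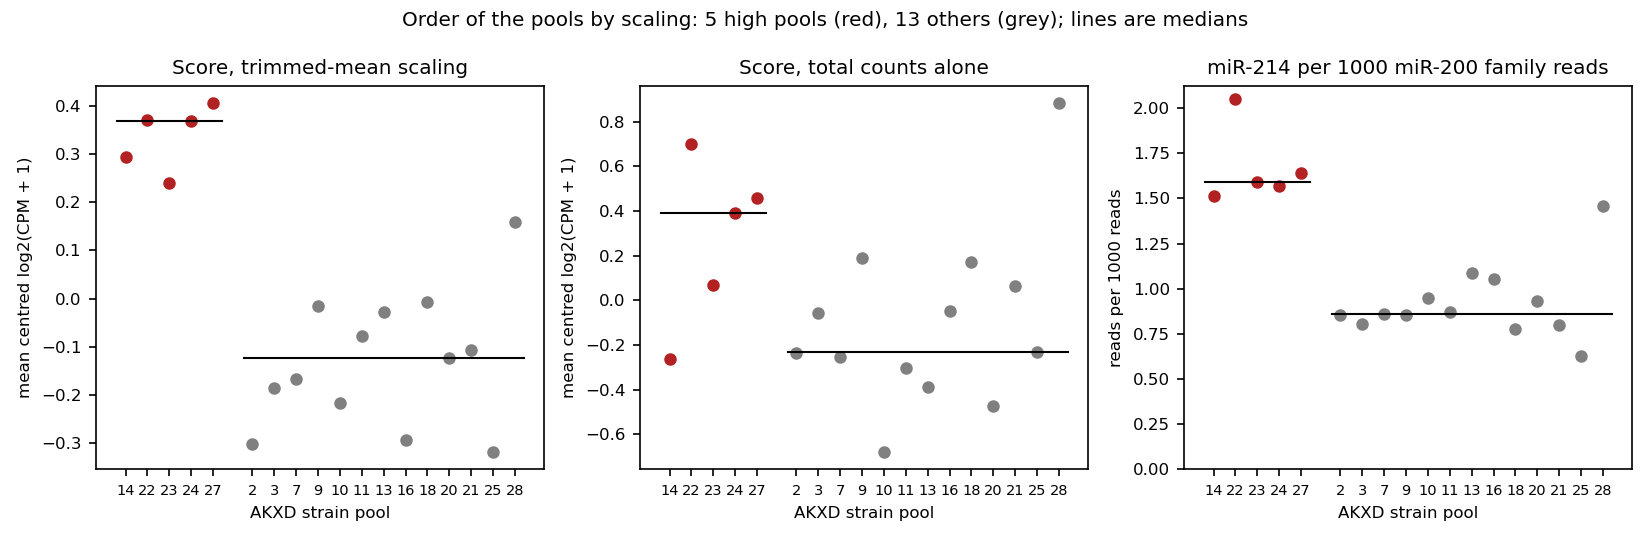
The score of the 4 rows by pool (mean centred log2 level) with trimmed-mean scaling and with total counts alone, and miR-214 reads per 1000 miR-200 family reads, with red points for the 5 high pools, grey for the 13 others and lines at the medians. Strain 14 drops from rank 4 to rank 14 between the first and second panels, and in the third the 5 red points are all above strain 28 at 1.46.

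Beyond the rows that chose the pools, no miRNA separated the sets. Of 571 distinct rows, 281 had a mean of at least 10 CPM, and the ranges of the 5 and the 13 did not overlap for 1 higher miRNA, miR-214 (0.356% of the 281), and for 0 lower ones (0%). With total counts 0 of the miRNAs were without overlap. Among the 277 that did not choose the pools, 0 were apart. Medians were at least 1.5 times higher in the 5 pools for 21 miRNAs (7.47%) and at least 1.5 times lower for 8 (2.85%). With total counts alone these counts were 20 and 13, so that the higher ones made up 60.6% of the calls in place of 72.4%. Of the 21 and the 8, 14 and 5 were called with both scalings. Over all 281 miRNAs the median difference, 5 minus 13, was −0.0005 on the log2(CPM + 1) scale, and the quartiles were −0.22 and 0.27. With total counts the median of all miRNAs moved to −0.09. The difference of 33 list members turned in sign with at least 1 of the 4 other scalings, and the furthest of these from 0 with the trimmed mean was miR-142-3p, at 0.45 log2. At least 60 of the 65 pairs went 1 way for 3 miRNAs that were higher (1.07%) and for 2 that were lower (0.712%). The 3 were miR-214, miR-708 and miR-223, and the 2 were miR-141* and miR-330. Apart from miR-214 these were named after their values had been seen.

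**Figure D3:**
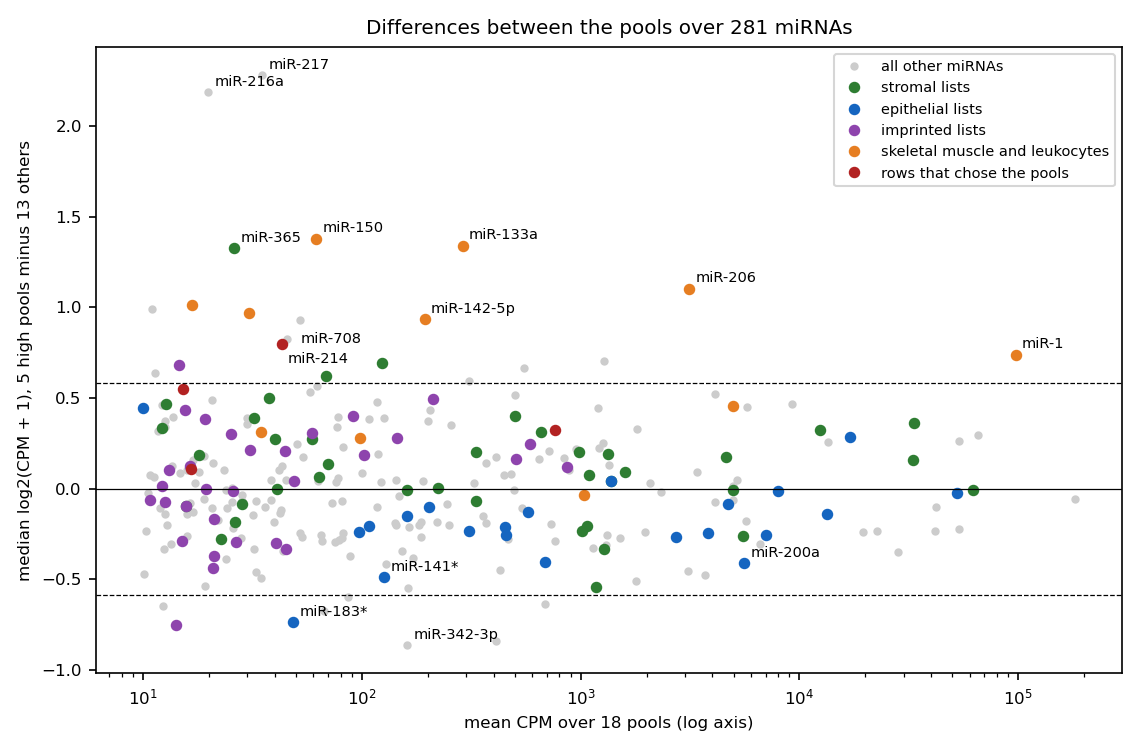
Difference of medians, 5 high pools minus 13 others, in log2(CPM + 1), against mean CPM over the 18 pools (log axis) for 281 miRNAs, coloured by list, with dashed lines at a 1.5-fold difference. The 5 skeletal muscle miRNAs, miR-150, miR-142-5p and miR-365 lie above the upper line, the miR-200 family lies mostly below 0, and most stromal and imprinted miRNAs lie between the lines.

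The miRNAs of smooth muscle and pericytes, cells in which miR-199 and miR-214 are also made, differed little in their medians with trimmed-mean scaling. miR-143, the leading smooth muscle miRNA, stood at 59872, 32681, 43110, 29708 and 24518 CPM in the 5, against 15247 to 57440 CPM and a median of 29253 CPM. Strain 14 was the highest of all 18 pools and strain 27 lay below the median of the others. miR-145, made from the same transcript as miR-143, stood at 154, 232, 143, 161 and 210 CPM against 37.8 to 272 CPM, and its medians, 161 and 162 CPM, were almost the same. miR-145* had medians of 41.1 and 41.2 CPM. Of these 3 miRNAs 0 passed a 1.5-fold difference.

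The miRNAs of fibroblasts, cartilage and matrix, 25 with at least 10 CPM, gave a median difference of 0.06 log2, with 15 above and 10 below 0, and 0 reached 1.5-fold in either direction. With total counts the median was −0.03, with 12 above and 13 below 0, and miR-140* and miR-125a-5p were at least 1.5 times lower. The 4 most abundant were miR-21, miR-140*, miR-152 and miR-10a, and the medians of miR-21, often abundant in tumours and in activated fibroblasts, were 69686 and 70126 CPM. miR-140*, from the cartilage gene Mir140, had a median of 4386 CPM in the 5 and 5261 CPM in the 13, and its highest value, 17148 CPM, was in strain 25. miR-152, which shares its seed with miR-148a, had medians of 4857 and 4308 CPM, and its difference turned from 0.17 to −0.13 log2 with total counts. miR-10a, encoded in the Hoxb cluster, had medians of 3933 and 3948 CPM, and strain 13 of the others had the most, 16104 CPM. The furthest apart on the high side, named after their values were seen, were miR-22* and miR-195. miR-195, a member of the miR-16 seed family, stood at 643, 555, 570, 781 and 549 CPM against 273 to 916 CPM and a median of 432 CPM. All 5 were above that median, and strain 10 of the others was above all 5. miR-22* stood at 33.1, 41.2, 51.1, 49.8 and 55.8 CPM against 13.0 to 49.4 CPM, with a median of 34.9 CPM, and strain 14 lay below that median. The furthest on the low side was miR-125a-5p at 1226, 737, 933, 765 and 1186 CPM against 734 to 2029 CPM. Its medians were 933 and 1358 CPM, a difference of −0.54 log2, and 17 of 65 pairs were higher in the high pool.

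For endothelium, miR-126-3p, from an intron of the endothelial gene Egfl7, stood at 20876, 9920, 11876, 13574 and 17217 CPM against 7237 to 16495 CPM and a median of 10852 CPM. Strains 14 and 27 were above every other pool and strain 22 was below the median of the 13. With total counts the 5 ran from 10532 to 17915 CPM and the 13 from 8669 to 14468 CPM. Strain 14 was then not above every other pool, and strain 22 was above the median of the 13. miR-126-5p, its partner arm, stood at 1418, 1444, 835, 1628 and 2259 CPM against 739 to 1718 CPM, with strain 27 the highest. Per 100 reads of the miR-200 family, miR-126-3p was 52.9, 32.3, 32.2, 34.0 and 47.5 against 19.8 to 39.8, higher in 58 of 65 pairs. miR-139-5p had medians of 25.3 and 26.8 CPM and miR-139-3p 12.4 and 9.62 CPM. The 4 endothelial miRNAs had a median difference of 0.26 log2, and 0 of them reached 1.5-fold.

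Among miRNAs of adipose tissue 3 of 7 had medians at least 1.5 times higher, against 7.47% of all miRNAs, and miR-365 differed most. The count was 1 of 7, miR-365, with total counts, with the upper quartile, without strain 24 and without strain 27. miR-365 and miR-193b, whose genes Mir365-1 and Mir193b lie 4238 bases apart on chromosome 16, act in brown fat differentiation, and a second copy of miR-365 lies on chromosome 11. miR-365 stood at 39.4, 91.5, 23.0, 39.4 and 28.7 CPM against 8.69 (strain 10) to 51.7 CPM (strain 16), with a median of 15.1 CPM. Strain 22 was the highest of the 18, and 57 of 65 pairs were higher in the high pool, a difference of medians of 1.33 log2. miR-193b stood at 57.3, 102, 56.7, 102 and 107 CPM against 28.3 to 93.9 CPM. Strains 22, 24 and 27 were above every other pool, and strains 14 and 23 lay below the median of the others, 65.6 CPM. The neighbours thus did not move together: miR-365 per read of miR-193b was 0.688, 0.901, 0.406, 0.387 and 0.268 in the 5 and 0.18 to 0.551 in the 13. miR-196a, the third, stood at 26.5, 6.22, 15.7, 23.7 and 290 CPM against 6.59 to 412 CPM, with medians of 23.7 and 14.3 CPM. Strains 2, 9, 18 and 20 of the others were above all 5, and 32 of 65 pairs were higher in the high pool. miR-378, encoded in Ppargc1b, which promotes mitochondrial metabolism, stood at 126572, 20398, 28442, 37344 and 26461 CPM against 14434 to 59879 CPM. Strain 14 held more than double any other pool with this scaling. With total counts the 5 reached 84982 CPM and the 13 reached 42763 CPM, and the difference fell from 0.36 to 0.13 log2. miR-193, a relative of miR-193b, had medians of 46.1 and 38.0 CPM.

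Epithelial miRNAs were on the low side of 0 without separating the sets. Of 8 miR-200 family arms with at least 10 CPM, 7 had lower medians in the 5 pools and 0 reached 1.5-fold. The median difference was −0.24 log2 (−0.33 with total counts), beside −0.0005 (−0.09) over all miRNAs. With the upper quartile 5 of the 8 were lower. The summed level of the 9 measured arms differed little. It was 31068 to 40374 CPM in the 5, median 37334 CPM, and 29009 to 55341 CPM in the 13, median 39461 CPM. miR-200a stood at 3280, 3946, 4317, 5073 and 5411 CPM against 4383 (strain 2) to 8694 CPM (strain 25), with a median of 5741 CPM. All 5 lay below that median, strains 14, 22 and 23 lay below every other pool, and 8 of 65 pairs were higher in the high pool. With total counts the 5 ran from 2202 to 5630 CPM and the 13 from 3601 to 9611 CPM. Then 13 of 65 pairs were higher, and of the high pools only strain 14 lay below every other pool. miR-200b, which shares a transcript with miR-200a, stood at 4544, 4085, 3784, 4866 and 4550 CPM against 3085 to 6634 CPM, with a median of 4813 CPM. Its difference, −0.08 log2, turned to 0.19 with total counts and to 0.20 with totals free of muscle rows. miR-200a was 0.722, 0.966, 1.14, 1.04 and 1.19 times miR-200b in the 5 and 0.883 to 1.78 times in the 13, median 1.32, so that all 5 lay below the median of this ratio, which no scaling touches. miR-200c, the most abundant of the family, was the exception, at 22067, 14829, 18125, 17665 and 13322 CPM against 11090 to 26245 CPM. Its medians were 17665 and 14525 CPM, and with total counts its difference turned from 0.28 to −0.20 log2. miR-141, 336 bases from miR-200c, had medians of 7599 and 7676 CPM, and miR-429, named after its value was seen, of 3516 and 4170 CPM.

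The passenger arms of the family, named after their values were seen, showed the same side more evenly. miR-141* stood at 81.0, 104, 110, 93.6 and 98.5 CPM against 101 (strain 13) to 191 CPM (strain 25), with a median of 139 CPM, and 4 of 65 pairs were higher in the high pool. Its level rested on at least 716 reads in the 5. Strains 14, 24 and 27 were below every other pool. miR-200a* stood at 89.2, 92.2, 80.8, 73.4 and 68.2 CPM against 83.7 to 148 CPM, with a median of 95.7 CPM. miR-200b* stood at 311, 184, 268, 274 and 271 CPM against 257 to 395 CPM, with a median of 319 CPM. With total counts 15 of 65 pairs were higher for miR-141*, 17 for miR-200a* and 5 for miR-200b*. For miR-141* only strain 14 then lay below every other pool.

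In the other epithelial lists 12 of 14 miRNAs had lower medians, where the median difference of all miRNAs was −0.0005 log2. Of the 14, 1 was at least 1.5 times lower, against 2.85% of all miRNAs. That one was miR-183*, an arm of the miR-183, miR-96 and miR-182 cluster, at 9.71, 47.4, 27.4, 36.2 and 41.4 CPM against 11.2 to 86.6 CPM and a median of 61.0 CPM. All 5 lay below that median, and 13 of 65 pairs were higher in the high pool, but without strain 14 its difference of −0.74 log2 became −0.56, under 1.5-fold. The main arm miR-183 had medians of 5288 and 6308 CPM, and miR-182 of 11317 and 12477 CPM, with strain 27 the lowest of the 18 for miR-182, at 5680 CPM. miR-148a, the most abundant of the list, had medians of 48631 and 49365 CPM, and miR-31 of 1529 and 1484 CPM. The basal and skin miRNA miR-203 stood at 1652, 993, 4377, 2400 and 1362 CPM against 1516 to 9931 CPM, and strain 22 was the lowest of all. miR-205, a marker of basal mammary cells, had medians of 491 and 536 CPM. Averaged over the 12 miRNAs of other epithelium, the centred level was higher in the high pool in 1 of 65 pairs, and for the miR-200 family in 10 of 65. For the remaining lists, the rows that chose the pools left out, this count ran from 20 (basal epithelium) to 57 (red cells), with 54 for skeletal muscle. These counts are with trimmed-mean scaling only. Strain 22 stood out by miR-375, an epithelial and islet miRNA named after its value was seen. It had 382 CPM against at most 155 CPM in the 13 and 54.4 to 84.4 CPM in the rest of the 5. The medians of miR-375 were 76.6 and 88.4 CPM, a difference of −0.20 log2, under 1.5-fold. Only with total counts, among the scalings used, was its median at least 1.5 times lower in the 5, at −0.60 log2.

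The imprinted Dlk1-Dio3 cluster, a group of miRNAs expressed from the maternal copy of chromosome 12 and known from mesenchymal tissues, lay slightly higher with trimmed-mean scaling. Of 64 measured arms 19 had at least 10 CPM, 17 with higher and 2 with lower medians. The median difference was 0.21 log2, beside −0.0005 over all miRNAs. With total counts alone 10 were higher and 9 lower, and the median was 0.03. miR-379, miR-541 and miR-127 were among those that turned, to −0.02, −0.01 and −0.05 log2. miR-379, the most abundant, stood at 942, 883, 939, 797 and 495 CPM against 573 to 1152 CPM and a median of 813 CPM. Strain 27 was the lowest of all 18 pools for miR-379. miR-541 stood at 709, 500, 633, 699 and 388 CPM against 383 to 864 CPM, and miR-127 at 545, 674, 525, 508 and 296 CPM against 268 to 762 CPM. In both, strain 27 was again the lowest of the 5. miR-411 stood at 236, 198, 222, 324 and 231 CPM against 120 to 346 CPM and a median of 164 CPM, with all 5 above that median and 50 of 65 pairs higher. Of the 19 arms 1 was at least 1.5 times higher, against 7.47% of all miRNAs. That arm, miR-380-5p, named after its value was seen, had medians of 18.8 and 11.4 CPM, a difference of 0.68 log2. It was under 1.5-fold with total counts (0.42), with the median of ratios (0.58) and without strain 14 (0.56). Strain 27, with the highest score of the rows that chose the set, ranked 15th of 18 by the centred mean of this cluster.

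At the other imprinted loci levels were low. miR-296-3p, from the Gnas locus, stood at 8.69, 10.2, 16.1, 7.83 and 11.0 CPM against 1.86 to 28.8 CPM, with medians of 10.2 and 18.0 CPM, and all 5 below the median of the others, while 25 of 65 pairs were higher in the high pool. Its difference, −0.75 log2, was −0.40 with total counts, under 1.5-fold. miR-335-5p, from an intron of Mest, had medians of 13.7 and 14.7 CPM. The paternally expressed miRNAs of the Sfmbt2 cluster belong to the miR-297, miR-466, miR-467 and miR-669 families. In this cluster 9 of 10 had lower medians, with a median difference of −0.23 log2, beside −0.0005 over all miRNAs. Of the 10, 0 were at least 1.5 times lower, against 2.85% of all miRNAs. With the upper quartile 7 of 10 were lower, and without strains 10, 13, 14 and 20 it was 5 of 10. Averaged over the 10, the centred level was higher in the high pool in 28 of 65 pairs. miR-467c stood at 42.8, 18.5, 55.9, 39.9 and 86.9 CPM against 20.4 to 78.0 CPM, and miR-467a at 27.8, 21.8, 33.0, 33.6 and 65.9 CPM against 24.0 to 70.8 CPM. miR-297a had medians of 22.0 and 27.2 CPM and miR-669c of 33.9 and 42.9 CPM. Strain 27 was the highest of the 5 for miR-467a, miR-467c and miR-297a, opposite to its place in the Dlk1-Dio3 cluster. Members of these families have near-identical sequences, so reads may be shared among them.

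**Figure D4:**
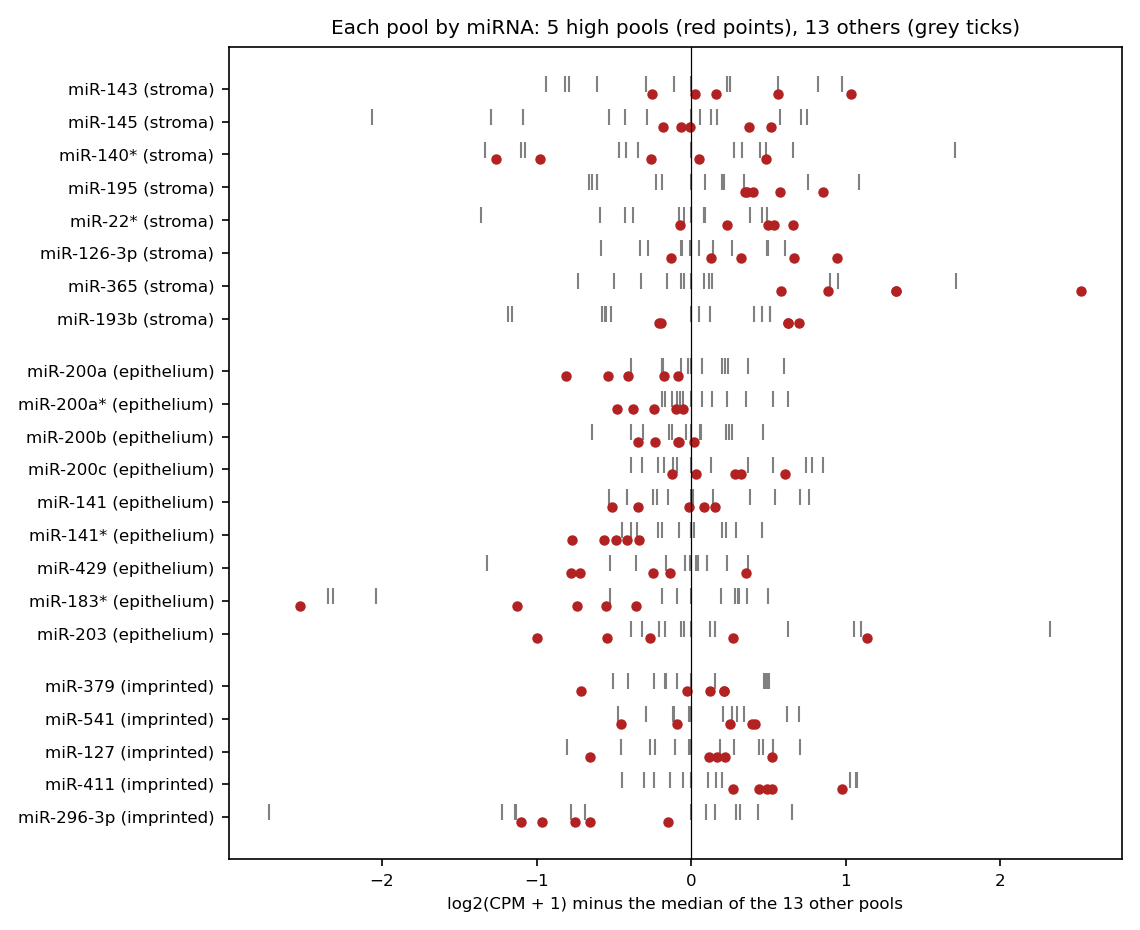
Level in each pool relative to the median of the 13 other pools, in log2(CPM + 1), for stromal, epithelial and imprinted miRNAs, with red points for the 5 high pools and grey ticks for the 13 others. All 5 red points lie to the left of 0 for miR-200a, miR-200a*, miR-141*, miR-183* and miR-296-3p, all 5 lie to the right for miR-195, miR-365 and miR-411, and in each row the red points overlap the grey ticks.

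All 5 skeletal muscle miRNAs with at least 10 CPM had medians at least 1.5 times higher in the 5 pools, against 7.47% of all miRNAs, with a median difference of 1.01 log2. Without strain 14 the count was 3 of 5, with miR-1 at 0.55 and miR-133a* at 0.45 log2, and without strain 24 it was again 3, with 0.54 and 0.51. Without strain 27 it was 4 of 5. miR-1, the main muscle miRNA, stood at 290785, 55730, 96331, 153576 and 127626 CPM against 21566 to 164202 CPM, with a median of 76484 CPM. Strain 14 was above every other pool and strain 22 below the median of the 13. miR-133a, transcribed with miR-1, stood at 468, 426, 306, 713 and 446 CPM against 23.3 to 649 CPM and a median of 176 CPM, and 58 of 65 pairs were higher. miR-206, restricted to skeletal muscle, stood at 11662, 1240, 4857, 4355 and 3217 CPM against 743 to 5776 CPM. The other 2, miR-133a* and miR-133b, had medians of 30.9 and 14.8 CPM and of 42.2 and 21.1 CPM. The summed level of the list was 57439 to 302999 CPM in the 5 and 22457 to 169861 CPM in the 13. Its part in the choice of the pools and in the differences above was not tested.

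Of 6 leukocyte miRNAs, 2 had medians at least 1.5 times higher, against 7.47% of all miRNAs, and 5 were above 0. With total counts 4 were above 0, since miR-142-3p turned from 0.45 to −0.13 log2. miR-142-5p, made in blood cells, stood at 424, 141, 118, 215 and 542 CPM against 99.7 to 379 CPM and a median of 112 CPM. miR-142-3p, the other arm, stood at 5791, 3139, 2085, 6033 and 17098 CPM against 1360 to 11240 CPM, and in strains 22 and 23 it was below the median of 4228 CPM. The lymphocyte miRNA miR-150 stood at 226, 22.1, 16.4, 55.3 and 313 CPM against 4.53 to 215 CPM and a median of 20.6 CPM. Strains 14 and 27 were the highest of the 18 for miR-150, and strain 11 was close behind. Strains 22 and 23 lay near the median of the others. With total counts miR-150 reached 326 CPM in the 5 and 183 CPM in the 13, and strain 14 fell below strain 11. miR-146a had medians of 897 and 920 CPM. The myeloid miRNA miR-223 was more even, at 36.2, 40.7, 38.7, 42.2 and 63.6 CPM against 16.7 to 43.9 CPM and a median of 32.6 CPM. All 5 were above that median, and 60 of 65 pairs were higher, 46 with total counts. The summed level of the leukocyte list was 3152 to 19572 CPM in the 5 and 2272 to 13536 CPM in the 13, and its part in the other differences was not tested.

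Red cell and liver miRNAs were also on the high side. Of 3 red cell miRNAs 1, miR-451, was at least 1.5 times higher, against 7.47% of all miRNAs. Its difference, 0.59 log2, was 0.24 with total counts, under 1.5-fold. miR-451, abundant in red cells, stood at 468, 240, 351, 415 and 605 CPM against 142 to 392 CPM and a median of 275 CPM, with strain 22 below that median. miR-486, found in red cells and muscle, stood at 311, 113, 183, 138 and 136 CPM against 36.2 to 207 CPM. Its difference was 0.39 log2, and 53 of 65 pairs were higher in the high pool. With total counts it reached 209 CPM in the 5 and 234 CPM in the 13. The difference was then 0.38 log2, and 60 of 65 pairs were higher. The summed erythroid level was 375 to 808 CPM in the 5 and 207 to 549 CPM in the 13. miR-122, the liver miRNA, stood at 375, 12.2, 166, 71.4 and 70.1 CPM against 1.56 to 182 CPM, and strain 14 was again the highest. The pancreas miRNAs had the greatest differences of medians in the table, 2.28 log2 for miR-217 and 2.19 for miR-216a, but these came from 3 of the 5 pools. miR-217 stood at 64.4, 41.2, 50.1, 6.14 and 3.79 CPM against 1.71 to 155 CPM, so strains 24 and 27 lay below the median of the others, 7.71 CPM. miR-216a stood at 38.3, 31.0, 27.2, 3.18 and 3.98 CPM and miR-216b at 14.5, 13.0, 12.8, 2.33 and 1.93 CPM, in the same order of pools. No more than 39, 37 and 31 of the 65 pairs were higher for miR-217, miR-216a and miR-216b. The summed pancreas level was 9.7 to 117 CPM in the 5 and 3.91 to 237 CPM in the 13. Neural miR-9 had medians of 1428 and 1396 CPM, and miR-9* of 44.0 and 29.4 CPM. The parts of the red cell, liver and pancreas miRNAs were not tested.

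**Figure D5:**
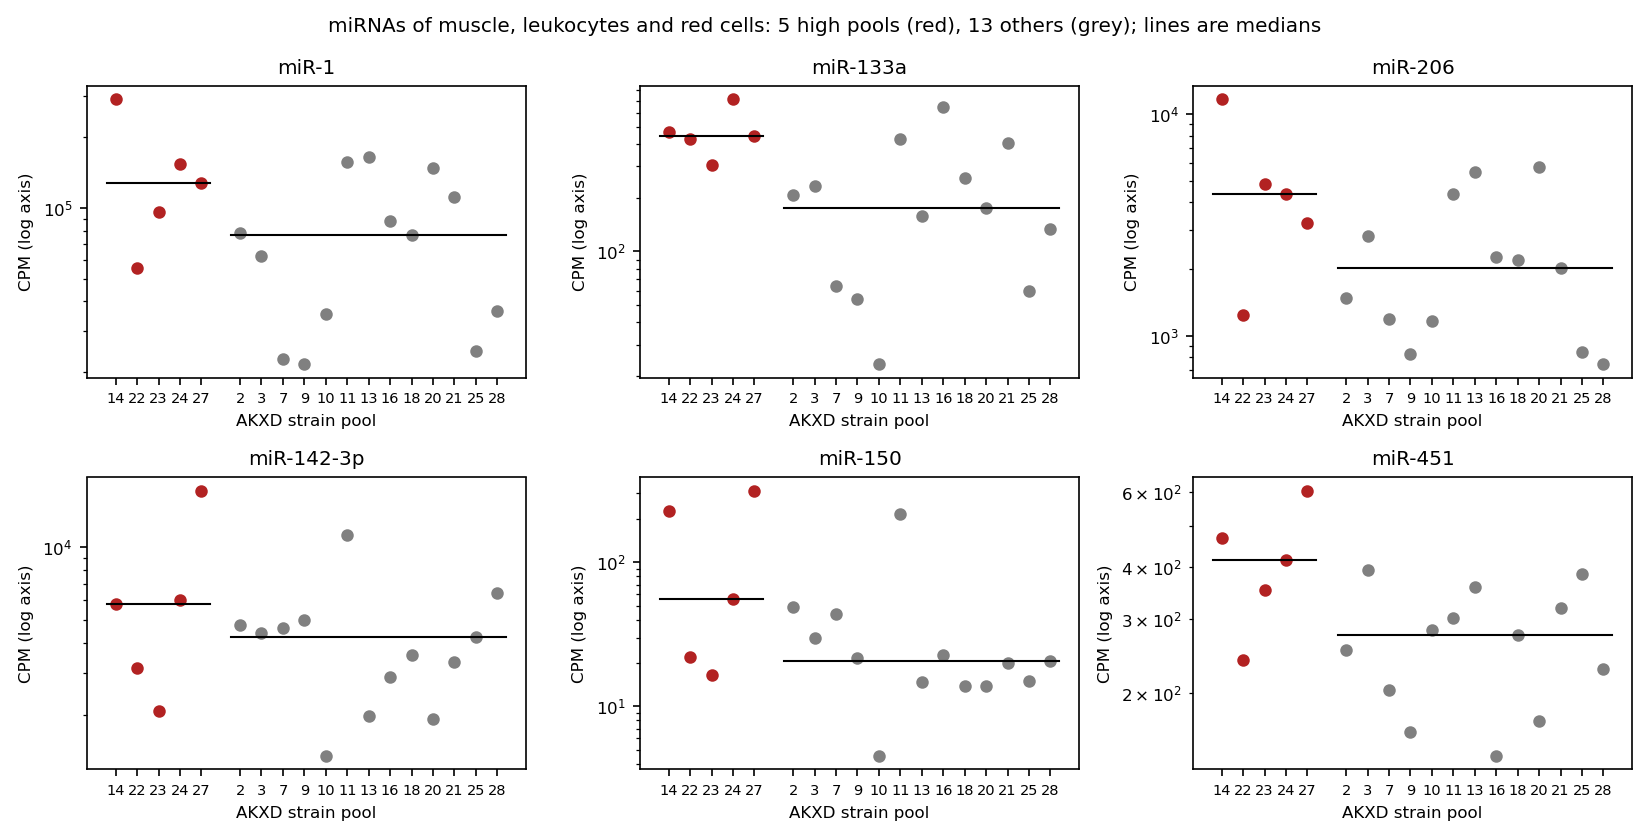
Level in CPM (log axes) of 3 skeletal muscle miRNAs, 2 leukocyte miRNAs and the red cell miRNA miR-451, 1 point per pool, red for the 5 high pools, grey for the 13 others, with lines at the medians. Strain 14 has the most miR-1 and miR-206, strain 27 the most miR-142-3p, miR-150 and miR-451, and strain 22 lies below the grey median for miR-1, miR-206, miR-142-3p and miR-451.

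The miR-17-92 cluster is linked to proliferation. Its 8 arms with at least 10 CPM had a median difference of −0.04 log2. With total counts it was −0.23 and 7 of 8 were lower, while the median of all miRNAs was −0.09. miR-20a stood at 1260, 2071, 2281, 2433 and 2577 CPM against 1672 to 3388 CPM, and strain 14 was the lowest of the 18. miR-17 had medians of 935 and 871 CPM.

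Of the 29 miRNAs at least 1.5 times apart, 5 higher and 6 lower ones were in no list. The 5 higher ones, named after their values were seen, were miR-107 (0.93 log2), miR-708 (0.82), miR-16 (0.70), miR-30b (0.66) and miR-135a (0.63). miR-107 had medians of 74.3 and 38.5 CPM, and 50 of 65 pairs were higher in the high pool. miR-708, named after its value was seen, stood at 93.7, 59.1, 38.2, 59.7 and 151 CPM against 14.0 (strain 28) to 43.6 CPM (strain 25), with a median of 33.3 CPM. Strains 14, 22, 24 and 27 were above every other pool, and 59 of 65 pairs were higher with total counts. The lower side was led by miR-342-3p, encoded in an intron of Evl, at 63.1, 120, 79.7, 109 and 180 CPM against 28.2 to 306 CPM, with medians of 109 and 199 CPM. All 5 lay below the median of the others, and 16 of 65 pairs were higher in the high pool. miR-2138 stood at 328, 252, 426, 245 and 114 CPM against 237 to 807 CPM and a median of 451 CPM, with strain 27 the lowest of the 18. miR-1944 stood at 49.5, 74.3, 51.8, 49.1 and 21.9 CPM against 28.2 to 103 CPM. miR-181a-1*, just under 1.5-fold, stood at 155, 92.2, 110, 135 and 125 CPM against 77.2 to 222 CPM and a median of 183 CPM, and 8 of 65 pairs were higher. miR-186 had medians of 473 and 736 CPM, miR-2133 of 57.7 and 87.7 CPM, and miR-339-3p of 8.69 and 14.2 CPM. miR-330, also under 1.5-fold and named after its value was seen, stood at 31.6, 21.6, 28.2, 25.6 and 25.8 CPM against 26.9 to 50.2 CPM and a median of 35.9 CPM. It was higher in the high pool in 4 of 65 pairs, and in 3 with total counts.

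Over the whole profile the 5 pools were about as far from each other as pools in general. The median absolute difference over the 281 miRNAs was 0.391 log2 at the median of the 10 pairs among the 5, 0.418 for the 65 pairs of 1 high and 1 other pool, and 0.427 for the 78 pairs among the 13. The pools also differed in which miRNAs they led. Strain 27 was the highest of all 18 for 33 miRNAs and the lowest for 19, strain 22 for 19 and 28, and strain 14 for 16 and 20. Strains 23 and 24 held few extremes, with 5 and 7 highest and 4 and 4 lowest values. Among the 5, strains 24 and 27 were the closest pair, at 0.308, and strains 14 and 22 the furthest apart, at 0.54. With trimmed-mean scaling, strain 14 joined high muscle, liver and red cell miRNAs, and strain 27 high leukocyte, endothelial and adipose miRNAs. With the same scaling, strain 22 joined high miR-365 and miR-375 with miR-1, miR-206, miR-142-3p and miR-451 below the median of the 13.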

How the data were processed

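Small RNA of 18 tumour pools, 1 library per strain, was sequenced. The authors deposited 583 mature miRNA rows as log2 values. Per the submitters' processing notes BWA and the mm9 build were used, with no version or role. The counter, annotation and filters are not stated. Each value, put back on a linear scale (0 stays 0), equals an integer read count multiplied by a factor that is the same for the whole library, which held within 0.006 log2 for 100% of the 3813 values of at most 50 reads. How that factor was set is unknown, and it cancels in CPM. Rows with identical values in all pools (20 in 8 sets) were counted once, leaving 571. CPM was computed with trimmed-mean-of-M-values factors, trimming 30% of ratios and 5% of abundances. Differences are on log2(CPM + 1), which understates those of low miRNAs, over rows averaging 10 CPM or more.

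The pools, the 18 miRNA lists and the rules were chosen with earlier results of these data known. Because values of the same libraries chose the pools, no test was run: medians, ranges, the 65 pairs of 1 high and 1 other pool, and the share of all miRNAs that differed as much are given. The text names the rows that chose the pools, list members apart in range or at least 1.5-fold with 55 of 65 pairs 1 way, the 4 most abundant members of stromal, epithelial and imprinted lists, the 2 most abundant of other lists, and the 10 greatest differences each way. Other names are said to be chosen after their values were seen. The scripts were tested on simulated data. RefSeq held 22 of the 24 mature names looked for, and positions are those of GENCODE genes of GRCm38. Python 3.11.15, numpy 2.4.6, pandas 2.3.3 and matplotlib 3.10.9 were run. Alternatives were other scalings, filters, pseudocounts and numbers of high pools, and each pool left out in turn.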

Additional observations from a re-analysis of the deposited data

How the results depend on the processing

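No paired analysis was possible because each strain is 1 library and replicate numbers pair nothing. The single miRNA without overlap, miR-214, became 0 with total counts, with the median of ratios, with totals free of muscle rows, at a mean of at least 100 CPM (where miR-214 is not kept) and with the 6 highest pools, and 2 with the 4 highest pools. With the pools chosen by summed CPM the count stayed at 1, but that miRNA was miR-199a-3p, and miR-214 overlapped. Without strains 10, 13, 14 and 20 there were 3 higher and 2 lower without overlap. The higher ones were miR-214, the stromal miR-195 and the imprinted miR-411, and the lower ones miR-141* and miR-330. When strain 28 was left out too there were 4 and 1. miR-574-3p, named after its value was seen, then joined the higher ones, and miR-330 overlapped. At 60 of 65 pairs there were 3 and 2. The count at least 1.5 times higher was 8 at 100 CPM and 7 at 2-fold. The count at least 1.5 times lower was 13 with total counts, 5 with the upper quartile, 5 with a pseudocount of 10 CPM, 5 with the 6 highest pools, 3 at 100 CPM, 19 with the pools chosen by summed CPM and 0 at 2-fold. Leaving out each pool in turn gave 1 to 2 higher without overlap (miR-708 joined miR-214 without strain 23), 14 to 25 at least 1.5 times higher and 5 to 12 lower, and 5 lower was the value without strain 21. Other epithelium had a list median of −0.327 with total counts. The pancreas list median was −0.133 with the 4 highest pools and −2.49 with the pools by summed CPM, with miR-216a at −0.0609 and −2.49, miR-216b at −0.519 and −2.05 and miR-217 at −0.133 and −2.54. miR-216b was −0.124, −0.0489 and −0.0231 without strains 14, 22 and 23, in a range of −0.124 to 1.21 over single pools left out. miR-296-3p was 0.0903 without strains 10, 13, 14 and 20. An alternative chosen after seeing the data, total counts with its own 5 highest pools (9, 22, 24, 27 and 28), replaced 2 of the 5 and moved the median of all miRNAs to 0.287. It gave 3 higher without overlap, 58 at least 1.5 times higher and 3 lower. Its list medians were 0.414 for fibroblast and matrix, 0.172 for the miR-200 family, 0.139 for other epithelium, 0.339 for other imprinted loci, 0.593 for Sfmbt2, −0.301 for skeletal muscle, −1.65 for pancreas and 0.269 for miR-17-92. Signs turned for 34 of the miRNAs named by rule, and those that had been at least 1.5 times apart were miR-1 (−0.301), miR-133a* (−0.518), miR-183* (0.396), miR-186 (0.582), miR-1944 (0.516), miR-206 (−0.796), miR-216a (−1.65), miR-216b (−0.448), miR-217 (−2.15), miR-339-3p (0.373) and miR-342-3p (0.0321). Among the rest were miR-125a-5p (0.417), miR-145 (0.782), miR-139-5p (0.946), miR-200b (0.349), miR-297a (0.557), miR-335-5p (0.776) and miR-467a (0.728). The cause was not tested. With 1 library per strain, read depth bounds counting error only.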
